A study of Mus musculus with 7 samples.

Results

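The genes examined here are 9 genes of early neuron formation, the proneural transcription factors *Neurog1*, *Neurog2*, *Neurod1* and *Neurod4* and the neuron genes *Elavl3*, *Elavl4*, *Tubb3*, *Stmn2* and *Dcx*. They were found by name on the array, where they had 14 of 41174 probes. Probes with a gene name entered the test if all arrays of one genotype or of the other read them well above background, and 10 of the 14 probes, for 8 of the 9 genes, did. RNA from pools of microdissected posterior second heart field (pSHF) was hybridized to 7 Agilent mouse arrays with a single dye. The pools held tissue of several embryos at E9.5, 4 pools of *Shh*-/- embryos and 3 of *Shh*+/+ embryos, and the number of embryos in each was not given in the sources used here. All embryos came from superovulated *Shh*+/- mothers of a mixed C56B/6 and CD-1 background mated with *Shh*+/- males. The *Shh* mutation was carried by all tissues of the embryo, and in the dissection the neural tube was taken away before the pSHF was collected. The attached foregut was kept with the tissue. The labels do not say whether pools with different numbers came from separate litters, so the p-values measure only the spread between these pools.

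The median spot signal was 86.4 to 145.3 scanner units and the median local background 21 to 25, and 0 spots were saturated. Same-numbered pools 1, 3 and 4 shared a slide, and mutant pool 2 was alone on its slide with a remark in the labels that the hybridization may have leaked. Mutant pools lay in array position 1 and wild-type pools in position 2, so position and genotype cannot be told apart.

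Proneural factors are basic helix-loop-helix proteins that pair with E proteins, bind E-box sequences and commit progenitors to the neuronal fate. *Neurog1* and *Neurog2* act first, in the neural tube and in the placodes and neural crest that give the cranial and dorsal root ganglia, and *Neurod1* and *Neurod4* act after them as neurons differentiate. Newly born neurons then switch on RNA-binding proteins such as those encoded by *Elavl3* and *Elavl4*, and the tubulin and microtubule-regulating proteins of the growing axon. At this stage neural crest cells and the vagal nerve enter the tissue beside the foregut, and *Neurod1* is also a factor of pancreatic endocrine cells.

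The promoters of *Neurog2*, the member with the largest difference between the genotypes, and of *Elavl3*, a gene of the neurons that such factors generate, are shown for the E-box, which is the letters CANNTG and reads the same on both strands. Each runs from 250 bases before to 50 bases after the start of the gene in the RefSeq annotation of GRCm38.p6, 5′ to 3′ on the strand of the gene, with E-box letters in capitals. *Neurog2* lies at chr3:127632886-127633185 on the plus strand and *Elavl3* at chr9:22051974-22052273 on the minus strand.
Neurog2: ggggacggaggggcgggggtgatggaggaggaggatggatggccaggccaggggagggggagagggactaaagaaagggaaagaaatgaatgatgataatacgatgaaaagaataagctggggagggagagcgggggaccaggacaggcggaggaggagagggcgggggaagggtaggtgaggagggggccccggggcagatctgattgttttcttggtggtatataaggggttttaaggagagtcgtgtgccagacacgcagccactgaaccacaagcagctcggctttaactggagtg
Elavl3: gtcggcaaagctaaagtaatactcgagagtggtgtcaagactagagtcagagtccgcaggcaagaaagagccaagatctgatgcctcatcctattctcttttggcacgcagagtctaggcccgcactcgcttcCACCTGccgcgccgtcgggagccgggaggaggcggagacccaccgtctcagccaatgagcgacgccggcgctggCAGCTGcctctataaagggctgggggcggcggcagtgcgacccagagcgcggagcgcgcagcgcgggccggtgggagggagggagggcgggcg
The *Elavl3* window held 2 E-box matches and the *Neurog2* window held 0. Of 32851 promoter windows of this length, 72.3% held at least 1 match, and of 13 windows for 8 of the members 7 did. The letters GACCACCCA, the core motif of the Gli factors that answer Hedgehog signals, were found on either strand in 0 of the 13 and in 0.253% of all windows. A match is a description of the sequence, and no binding was measured here.

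No member probe passed the test between the genotypes in the full set of arrays. With limma and Benjamini-Hochberg adjustment, 0 of 10 member probes had an adjusted p under 0.05, beside 0.558% of the 23127 probes tested. At an unadjusted p under 0.05 there was 1 of 10, a *Dcx* probe that was higher in the mutants, beside 7.96% of all probes (3.99% lower and 3.97% higher). Values below are normalized log2 signals, and a fold change is a log2 difference, mutant minus wild type. With the brightest tested probe of each gene, 6 members lay lower and 2 higher in the mutant pools, with a median of −0.31 beside 0.03 over 14894 genes tested. This median ran from −0.39 to −0.14 with 1 pool left out, and it was −0.14 without mutant pool 1 and −0.19 without wild-type pool 1. In pooled tissue, fewer cells of a type and less RNA per cell cannot be told apart.

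**Figure D1:**
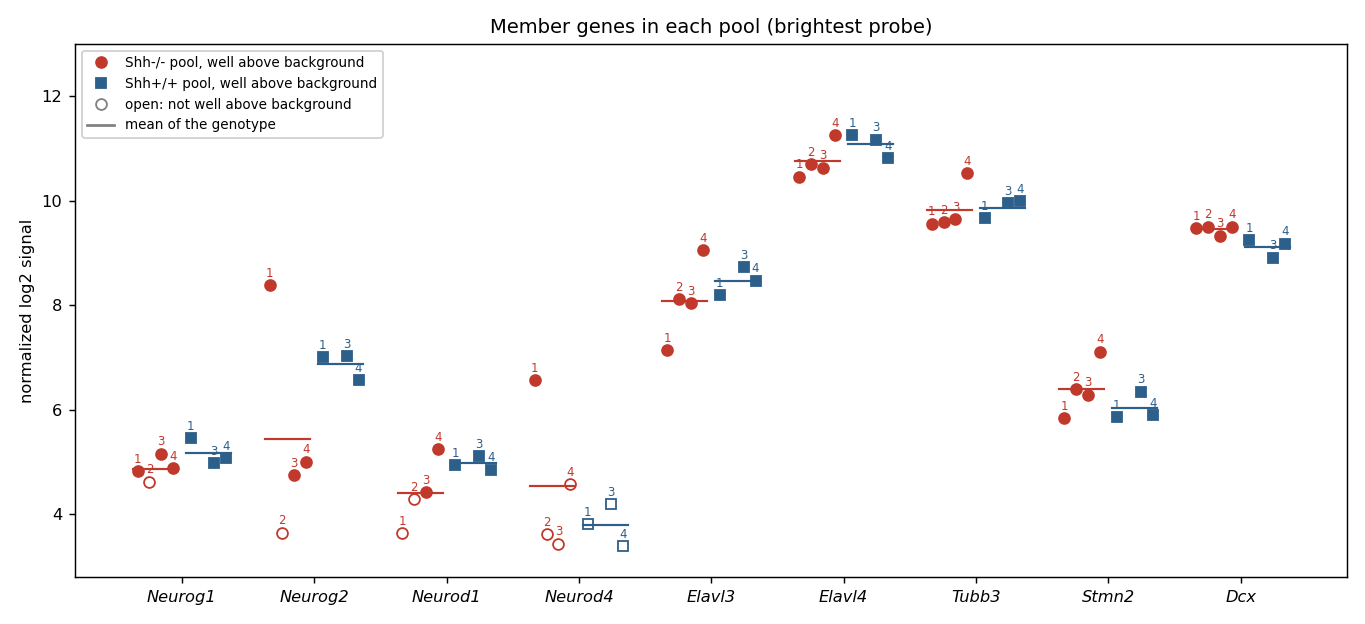
Normalized log2 signal of the brightest probe of each member (vertical axis) in the 4 *Shh*-/- pools (red circles) and the 3 *Shh*+/+ pools (blue squares), numbered by pool, with the genotype means as lines and open marks where the probe was not well above background. *Neurog2* at 8.38 and *Neurod4* at 6.57 stood high in mutant pool 1 alone among the mutants, and mutant pool 4 was the highest mutant for *Elavl3*, *Elavl4*, *Tubb3* and *Stmn2*.

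*Neurog2* had the largest difference of the members, and 1 array decided whether it passed the test. Its probe (mm9, chromosome 3, bases 127337805 to 127337864, plus strand) measured 7.01, 7.03 and 6.56 in wild-type pools 1, 3 and 4. In mutant pools 1 to 4 it measured 8.38, 3.65, 4.75 and 5.00, and in pool 2 it was not well above background. Thus 3 mutant pools lay below every wild-type pool and mutant pool 1 lay above every one. Over all pools the mean was 5.45 ± 2.05 (SD, n = 4) in the mutants and 6.87 ± 0.26 (SD, n = 3) in the wild type. The fold change was −1.42 (SE 0.92, 95% CI −3.51 to 0.67) and did not pass the test (limma, adjusted p = 0.934). The mutant minus wild-type difference was 1.37 on slide 1, −2.28 on slide 3 and −1.56 on slide 4.

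The *Neurog2* spot of mutant pool 1 lay on a bright patch of its array. Among the spots within 6 rows and 3 columns of it, 45 were dimmer than the middle of the array. On mutant pool 1 their median signal was 108 scanner units, against 41.4 for the same spots on the other arrays, and 39 of the 45 were brighter there than on any other array. The *Neurog2* spot itself read 306 units on that array, 126, 166 and 127 on the wild-type arrays and 42.3, 63.4 and 59.0 on the other mutant arrays, and the scanner's local background there was 27. Around the same position on the other 6 arrays, these dim spots had medians of 37.0 to 50.6. A spot was called on a patch where its dim neighbours exceeded the same spots on the other arrays by more than 0.5 on the log2 scale. This held for 417 spots (0.961%) of mutant pool 1, 851 (1.96%) of mutant pool 2, 337 (0.777%) of mutant pool 4 and 100 (0.231%) of wild-type pool 1, and for 0 spots of the other 3 arrays. *Neurog2* in mutant pool 1 was the only member spot on such a patch.

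With spots on patches left out, a setting chosen after seeing the data, the fit dropped mutant pool 1 for *Neurog2* and used the other 3 mutant pools. The fold change was then −2.43 (SE 0.34, 95% CI −3.21 to −1.64), with an adjusted p of 0.0318 by limma. The probe was in the test because all wild-type pools read it above background, and of the 3 mutant pools left only pools 3 and 4 did. The value of mutant pool 2 was then raised to the lowest signal well above background on its array, also chosen after seeing the data. The fold change was −2.01 (95% CI −2.385 to −1.64, limma adjusted p = 0.00605), an estimated ratio of 0.248 for the 3 mutant pools left. Raising the value of mutant pool 2 also narrowed the spread between the mutant pools, so the smaller p is not a firmer call. In that setting 0.528% of all probes were called. With the measured values, *Neurog2* was the only member probe called, 1 of 10, beside 0.571% of all probes and 0.303% called lower. With the whole of mutant pool 1 left out the fold change was −2.40 (limma, adjusted p = 0.0276), beside 0.588% of all probes called. How much of the signal in mutant pool 1 came from the patch was not tested.

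**Figure D2:**
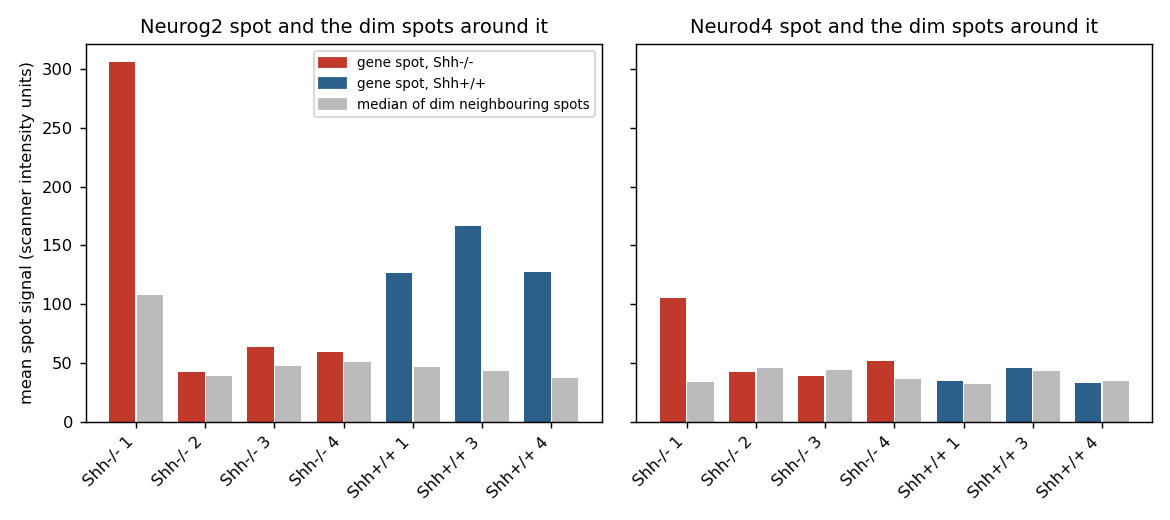
Mean spot signal in scanner intensity units (vertical axis, linear, from 0) of *Neurog2* (left) and *Neurod4* (right) on each of the 7 arrays, in red for *Shh*-/- and blue for *Shh*+/+, beside the median of the dim spots around each (grey). The grey bar of *Neurog2* stood at 108 on mutant pool 1 and at 37.0 to 50.6 elsewhere, whereas that of *Neurod4* was 33.9 on mutant pool 1.

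*Neurod4* was measured above background in a single pool. Its probe (chromosome 10, bases 129706046 to 129706105, minus strand) gave 6.57, 3.62, 3.44 and 4.57 in mutant pools 1 to 4 and 3.81, 4.19 and 3.39 in wild-type pools 1, 3 and 4. In mutant pool 1 alone was it well above background, so it was not tested and no fold change is given. The spot was brightest there, and it read 32.8 to 51.2 units on the other arrays. Unlike for *Neurog2*, the 38 dim spots around it were not raised on that array, with a median of 33.9 against 38.0 on the others. The probe was printed once, so this value rests on 1 spot.

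*Neurog1*, the sister factor of *Neurog2*, was near the background in all pools. Its probe (chromosome 13, bases 56352641 to 56352700, minus strand) measured 4.83, 4.63, 5.16 and 4.89 in mutant pools 1 to 4 and 5.46, 4.98 and 5.07 in the wild type, with 3 of 4 mutant and 3 of 3 wild-type pools well above background. The groups overlapped, since mutant pool 3 exceeded wild-type pools 3 and 4. The fold change of −0.29 (SE 0.16, 95% CI −0.67 to 0.08) did not pass the test (limma, adjusted p = 0.838). *Neurod1* (chromosome 2, bases 79293621 to 79293680, minus strand) measured 3.64, 4.29, 4.42 and 5.25 in the mutants, with pools 1 and 2 not well above background, and 4.94, 5.12 and 4.85 in the wild type. The highest value of all was in mutant pool 4 and the other 3 mutant pools lay below the wild type. The fold change was −0.57 (SE 0.31, limma adjusted p = 0.819), with differences of −0.70 and 0.39 on slides 3 and 4. It leans on the 2 values not above background. With these raised to the lowest signal well above background on their arrays it was −0.18 (limma, adjusted p = 1), and the difference on slide 1 moved from −1.31 to −0.30.

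The RNA-binding proteins encoded by *Elavl3* and *Elavl4* stabilize messages of young neurons. *Elavl3* (chromosome 9, bases 21822471 to 21822530, minus strand) measured 7.14, 8.12, 8.04 and 9.05 in mutant pools 1 to 4 and 8.19, 8.73 and 8.47 in wild-type pools 1, 3 and 4. Mutant pools 1 to 3 lay below the wild type and mutant pool 4 above it. The fold change of −0.37 (SE 0.37) did not pass the test (limma, adjusted p = 1), and a second probe was not well above background on any array. The brighter *Elavl4* probe (chromosome 4, bases 109878775 to 109878834, minus strand) measured 10.46, 10.70, 10.63 and 11.26 in the mutants and 11.26, 11.17 and 10.81 in the wild type, a fold change of −0.32 (SE 0.20, limma adjusted p = 0.914). Here too mutant pools 1 to 3 lay below the wild-type pools, and mutant pool 4 was level with the highest of them. A dimmer *Elavl4* probe gave −0.33 (limma, adjusted p = 0.838), close to the first.

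*Tubb3*, the neuron-specific beta tubulin, was printed as 10 spots on each array (chromosome 8, bases 125945701 to 125945760, plus strand). It measured 9.56, 9.59, 9.64 and 10.53 in mutant pools 1 to 4 and 9.67, 9.95 and 9.99 in wild-type pools 1, 3 and 4. Mutant pools 1 to 3 lay just below the wild type and pool 4 above it, and the fold change was −0.04 (SE 0.24, 95% CI −0.58 to 0.50, limma adjusted p = 1). Before normalization its 10 spots read 1150 to 1260 units on mutant pool 4, and the widest range within an array was 969 to 1200 units, on wild-type pool 4. *Stmn2*, whose product destabilizes microtubules in growth cones, measured 5.83, 6.39, 6.29 and 7.11 in the mutants and 5.85, 6.34 and 5.90 in the wild type (chromosome 3, bases 8561261 to 8561320, plus strand). Its fold change was 0.37 (SE 0.27, limma adjusted p = 0.998), and the pair on slide 4 alone differed by 1.22, against −0.02 on slide 1 and −0.06 on slide 3. A second *Stmn2* probe was well above background only in mutant pool 3.

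*Dcx*, which encodes the doublecortin that stabilizes microtubules in migrating neurons, was the only tested member whose genotypes did not overlap, and it lay higher in the mutants. The brighter probe (chromosome X, bases 140290854 to 140290913, minus strand) measured 9.47, 9.5, 9.33 and 9.5 in mutant pools 1 to 4 and 9.25, 8.91 and 9.18 in wild-type pools 1, 3 and 4. The lowest mutant thus lay above the highest wild-type pool, as for 4.79% of 23025 tested probes with a value on every array, and 8.35% did not overlap in either direction (3.56% lower). The fold change was 0.34 (SE 0.12, 95% CI 0.07 to 0.61), and the differences of 0.23, 0.42 and 0.33 on slides 1, 3 and 4 had one sign. It did not pass the test after adjustment (limma, adjusted p = 0.403). A dimmer *Dcx* probe overlapped between the genotypes and gave 0.14 (limma, adjusted p = 1), and a further probe was not well above background on any array.

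**Figure D3:**
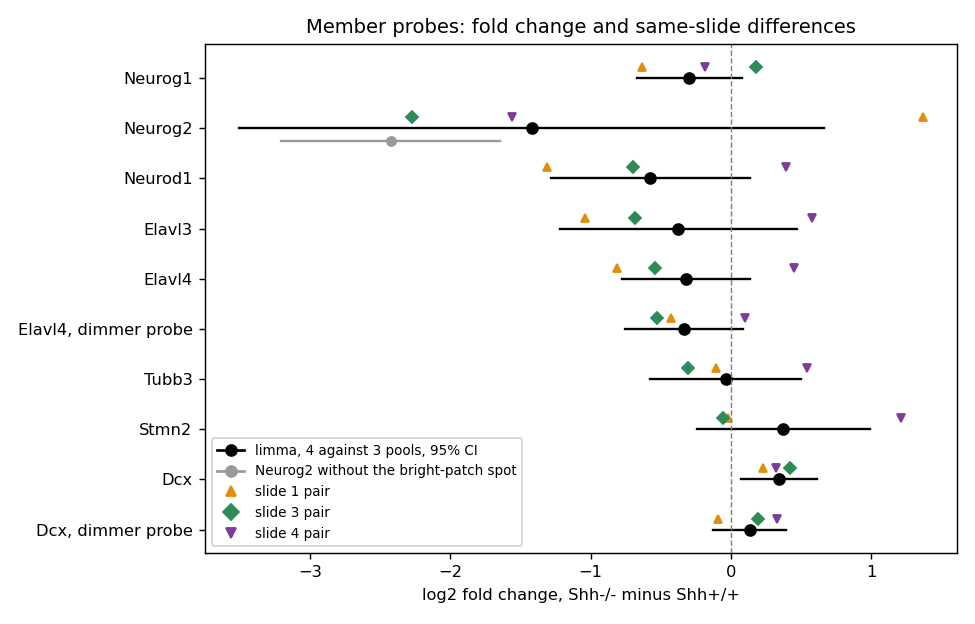
Fold change of the 10 tested member probes (horizontal axis, log2, *Shh*-/- minus *Shh*+/+) with the 95% confidence interval of limma over 4 and 3 pools in black, and the mutant minus wild-type difference of each same-slide pair as coloured marks. The grey interval is *Neurog2* without the spot on the bright patch, at −2.43, and the slide 4 mark lay above 0 for *Neurod1*, *Elavl3*, *Elavl4*, *Tubb3* and *Stmn2*.

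Among the brightest tested probes, only that of *Dcx* kept the direction of its difference on all 3 slides with both genotypes. *Neurog1* differed by −0.63 on slide 1, 0.18 on slide 3 and −0.185 on slide 4, and *Neurog2* lay higher in the mutant on slide 1 alone. The other 5 of the 8 tested members had the same signs on these slides. For *Neurod1*, *Elavl3*, *Elavl4*, *Tubb3* and *Stmn2* the mutant pool lay below its slide partner on slides 1 and 3 and above it on slide 4. The lower values were slight for *Stmn2* (−0.02 and −0.06 on slides 1 and 3) and for *Tubb3* on slide 1 (−0.11). The share of all probes with these signs was not counted. On slide 1 the differences of *Elavl3* and *Elavl4* were −1.04 and −0.81, on slide 3 they were −0.69 and −0.54, and on slide 4 they were 0.58 and 0.45. Between pools of one genotype, the SD had a median of 0.26 over the tested member probes and of 0.17 over all tested probes. Without mutant pool 4, 5 of 10 member probes reached an unadjusted p under 0.05, those of *Neurod1* (−0.86, limma adjusted p = 0.17), *Elavl3* (−0.69), both of *Elavl4* (−0.49 and −0.47) and, higher, *Dcx* (0.33), and none had an adjusted p under 0.05. In that fit 9.22% of all probes reached an unadjusted p under 0.05. Mutant pool 4 was the highest mutant for *Neurod1*, *Elavl3* and *Elavl4*, so leaving it out could only lower their differences. Their brightest probes also correlated over the arrays (Pearson r of 0.789 to 0.947), so they are not separate results. Without mutant pool 1, the lowest mutant for these genes, the differences were instead less negative or more positive than over all pools, at −0.32 for *Neurod1*, −0.06 for *Elavl3*, −0.22 for the brighter *Elavl4* probe, 0.05 for *Tubb3* and 0.57 for *Stmn2*.

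Genes of pancreatic endocrine cells also varied between the mutant pools. *Gcg*, which encodes glucagon, measured 6.49, 11.35, 8.21 and 11.24 in mutant pools 1 to 4 and 8.95, 9.86 and 8.94 in wild-type pools 1, 3 and 4. Mutant pool 1, the lowest for *Gcg*, was the lowest mutant for *Elavl3*, *Elavl4*, *Tubb3*, *Stmn2* and *Neurod1*, and mutant pool 4, the highest for these 5, was high for *Gcg*. Mutant pool 2 was the highest of all pools for *Gcg* and for the endocrine list but the lowest for the mean of the members. That mean includes *Neurog2*, which measured 3.65 in mutant pool 2 and 8.38, on the bright patch, in mutant pool 1. For each of the 5 genes named here, mutant pool 2 lay between mutant pools 1 and 4. It did not stand above mutant pool 3 as it did for *Gcg*. For *Neurod1* and *Tubb3* pool 2 lay below pool 3 (4.29 against 4.42 and 9.59 against 9.64). For *Elavl3*, *Elavl4* and *Stmn2* it lay only just above. Of 14 genes of the endocrine list 9 were tested, 4 lower and 5 higher with a median of 0.07. By limma 0 passed an adjusted p under 0.05 and 1 an unadjusted p under 0.05, and *Ins1*, *Nkx2-2*, *Pax4*, *Pdx1* and *Scg2* were not well above background throughout either genotype. Its mean deviation from the 7-pool mean ran from −0.47 to 0.71 in the mutants and from −0.35 to 0.08 in the wild type. Their part in the values of the neuron genes was not tested. Of this list *Ptf1a*, a factor of the pancreatic bud, had the smallest p, with a fold change of 1.70 (limma, adjusted p = 0.137). Wild-type pools measured it above background in 2 of 3 cases, and its spots on mutant pools 1 and 4 lay on bright patches. Without these spots it was 1.16, with 2 mutant pools left (limma, adjusted p = 0.387). The hormone genes *Ins2* and *Ghrl* gave 0.17 and 0.81, the prohormone convertase gene *Pcsk2* 0.33, and the secretory granule genes *Chgb* and *Chga* −0.25 and −0.05, and none of the 5 passed the test. Spots of *Ins2* on mutant pool 2 and of *Chgb* on mutant pools 2 and 4 also lay on bright patches. Without them these genes gave 0.15 and −0.25.

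No other gene of the proneural pathway passed the test. Of 20 proneural and Notch partner genes 17 were tested, of which 13 lay lower and 4 higher, whereas 40.4% of all 14894 genes lay lower. At an unadjusted p under 0.05 there were 6 lower and 1 higher, beside 4.11% of all genes lower and 5% higher. The 1 higher, named after its value was seen, was the corepressor gene *Cbfa2t3* at 0.39 (limma, adjusted p = 0.594). The median of the list was −0.27 beside 0.03 for all genes, and it was −0.15 without mutant pool 1 and −0.11 with the authors' values once all arrays had the same median. *Hes5*, a Notch target that holds progenitors undifferentiated, measured 6.93, 6.02, 7.11 and 7.25 in mutant pools 1 to 4 and 7.91, 10.57 and 9.98 in wild-type pools 1, 3 and 4. The genotypes did not overlap, with a fold change of −2.66 (SE 0.57, limma adjusted p = 0.106). *Dll3*, a Notch ligand family member, gave −0.62 (limma, adjusted p = 0.134), and *Insm1*, a zinc finger factor of newborn neurons and endocrine cells, −0.54 (limma, adjusted p = 0.186), both without overlap. *Nhlh2*, a helix-loop-helix factor of young neurons, was well above background in all wild-type pools and in 0 of 4 mutant pools, and was at least 1.32-fold higher in the wild type. This bound sets each mutant value at the lowest signal well above background on its array. The fit to its measured values, those below background included, did not pass the test (limma, adjusted p = 0.0822), and that p does not bear on the bound. The brightest genes of the list, *Cbfa2t2*, *Gadd45g*, *Hes6* and *Ebf3*, had fold changes of 0.06, 0.06, −0.10 and −0.27 with overlapping groups.

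Genes of neuron structure and synapse, such as neurofilaments and axon proteins, had a median near that of all genes. Of 26 genes 21 were tested, of which 13 lay lower and 8 higher with a median of −0.05. By limma 0 passed an adjusted p under 0.05 and 1 an unadjusted p under 0.05. The smallest p was that of *Nsg1*, an endosomal protein of neurons, at −0.45 (limma, adjusted p = 0.585). Its spot on mutant pool 2 lay on a bright patch. Without this spot it was −0.44, with an unadjusted p of 0.077 by limma. *Crmp1*, a regulator of axon guidance, gave −0.28 (limma, adjusted p = 0.671) and *Nefm*, the medium neurofilament, −0.38 (limma, adjusted p = 0.756). *Uchl1*, *Dpysl3* and *Nsg2*, among the brightest of the list, gave 0.31, −0.13 and 0.03 with overlapping groups.

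Among genes of the ganglia that arise from placodes and neural crest, a factor of autonomic neurons fell in the mutants. Of 20 genes 16 were tested, of which 12 lay lower and 4 higher with a median of −0.30. By limma 1 passed an adjusted p under 0.05, beside 59 lower and 58 higher among all 14894 genes. At an unadjusted p under 0.05 there were 6 lower (37.5%) and 1 higher, beside 4.11% of all genes lower and 5% higher. The lower share was close to that of the proneural and Notch list (35.3%). *Phox2a*, a homeodomain factor of autonomic and cranial neurons, measured 6.07, 6.18, 6.64 and 6.79 in mutant pools 1 to 4 and 7.40, 7.71 and 7.73 in wild-type pools 1, 3 and 4, and fell by 1.19 (SE 0.19, limma adjusted p = 0.0437). All mutant values were thus under the lowest of the wild type. The adjusted p lay just under 0.05, and the number of probes called over the whole array changed widely with the processing, as given below. Of the other placode and ganglion factors, *Isl1* gave −0.43 (limma, adjusted p = 0.319) and *Eya2* −0.93 (adjusted p = 0.409). The bright crest and glia genes *Sox10*, *Erbb3* and *Ngfr* gave −0.44, −0.14 and −0.03 with overlapping groups (limma, adjusted p = 0.654 for *Sox10*).

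Genes of neural tube progenitors were examined as markers of tissue the dissection was meant to leave out. Some of them, such as *Zic1* and *Gbx2*, also have a place outside the neural tube, and the collected tissue held foregut. The list is thus not a measure of neural tube tissue alone. Of 18 genes 11 were tested, 7 lower and 4 higher with a median of −0.13. By limma 2 passed an adjusted p under 0.05, both lower, beside 59 lower and 58 higher among all 14894 genes. At an unadjusted p under 0.05 there were 4 lower (36.4%) and 1 higher, beside 4.11% of all genes lower and 5% higher. *Zic1*, a zinc finger factor of dorsal neural tube and somites, fell by 1.92 (SE 0.32, limma adjusted p = 0.0439), from 9.08, 8.12 and 8.77 in the wild type to 6.33, 6.46, 6.61 and 7.54 in the mutants. *Gbx2*, a factor of the hindbrain and pharyngeal region, fell by 0.83 (SE 0.13, limma adjusted p = 0.0434). For *Zic1* and *Gbx2* too the adjusted p lay just under 0.05, and the same limit holds. *Nkx6-1* gave −0.85 (limma, adjusted p = 0.0677), *Sox2* −0.40 (adjusted p = 0.335) and *Lhx2* 0.53 (adjusted p = 0.0822), each without overlap. *Sox21* gave −0.22, *Fabp7* 0.04 and *Nes* 0.05 with overlapping groups. *Dbx1*, *Dbx2*, *Irx3*, *Nkx2-2*, *Olig3* and *Sox1* were not well above background throughout either genotype. The mean deviation of the list was −0.25 to −0.02 in the mutant pools and 0.18 to 0.22 in the wild-type pools. This mean was not scaled by gene, so *Zic1*, *Nkx6-1* and *Gbx2*, with the largest fold changes of the list, weigh most in the split. The part of the list in the values of the members was not tested.

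**Figure D4:**
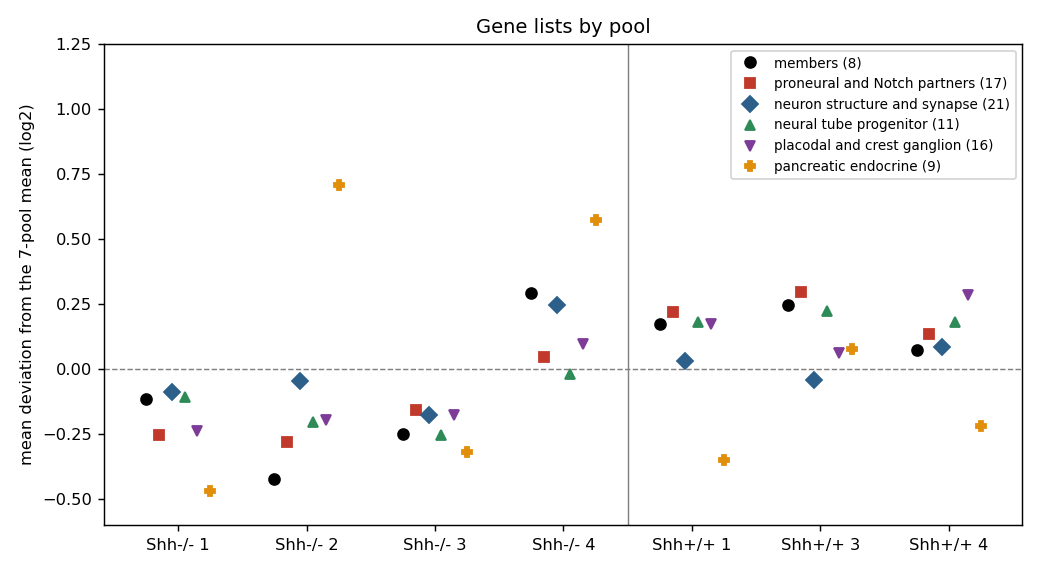
Mean deviation of each gene list from its 7-pool mean (vertical axis, log2) in each pool, with the number of tested genes in brackets. The members lay at −0.12, −0.42, −0.25 and 0.29 in mutant pools 1 to 4 and at 0.17, 0.25 and 0.07 in the wild type, so that mutant pool 4 was the highest of all, and the endocrine list was highest in mutant pools 2 and 4. The member value of mutant pool 1 includes the *Neurog2* spot on the bright patch, which raised it.

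The labelled tissue was read from 16 genes of the posterior second heart field, all of which were tested. By limma 0 passed an adjusted p under 0.05, and at an unadjusted p under 0.05 there were 3 lower and 2 higher. Their median fold change was −0.06. *Wnt2*, *Nr2f2*, *Gata6* and *Aldh1a2*, with the highest signals of the list, measured 13.20 to 15.06 over the pools and had fold changes of 0.09, −0.07, 0.26 and −0.07. The smallest p were those of *Foxf1* at −0.80 (limma, adjusted p = 0.0927) and *Osr1* at −0.88 (adjusted p = 0.231). *Shh* itself measured 9.67, 9.39, 9.22 and 9.32 in mutant pools 1 to 4 and 10.72, 10.74 and 9.98 in wild-type pools 1, 3 and 4. It was lower in every mutant pool, with a fold change of −1.08 (SE 0.20, limma adjusted p = 0.0655). Whether the probe lies in the deleted stretch of the gene was not given in the sources used here.

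The genes whose pattern over the 7 arrays was most like the mean of the tested members were *Ndufs3*, *Wdr51a*, *Gtf2h3*, *Krt15* and *Prdx6-rs2*, with Pearson r of 0.985, 0.983, 0.981, 0.968 and 0.955. These are the highest of 14824 genes compared over 7 arrays, on 4 slides, and are a description. The mean was not scaled by gene and held the *Neurog2* spot on the bright patch. *Neurog2* had the widest spread of the tested members (SD 2.05 in the mutants), so it weighs most in this pattern. None of the 5 passed the test between the genotypes.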

How the data were processed

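RNA of 7 pools was read on 1-colour Agilent arrays. The authors' deposited scan files give, per spot, mean signal and background as intensity (Agilent Feature Extraction 10.5.1.1, per the labels), on probes placed in mm9. The authors' deposited table gives log2 values for 11 of the 14 member probes. Its scale and centring are not stated, with array medians from 5.50 (mutant pool 2) to 9.93 (mutant pool 4), and it served only as an alternative.

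Mean signals were corrected by normexp on 153 negative control spots (offset 50), outlier spots (155 to 206 an array) were left out, and arrays were normalized by VSN (own code, trimming share 0.9, 7 iterations, 5 strata) and averaged by probe. These steps follow the study's methods, which do not name the background correction. The 23127 probes that passed were compared with limma 3.58.1 in R 4.3.3 (statmod 1.5.0, data.table version 1.17.8), 4 mutant against 3 wild-type pools, with Benjamini-Hochberg adjustment. SAM, the test of the study, was not run. Code was tested on simulated data. Figures used matplotlib 3.10.9.

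The labels' strain and genotype entries hold each other's content, and the content was followed. Same-numbered pools share a slide. Their deviations from the genotype means correlated at 0.192, 0.238 and 0.0328, against −0.22 to 0.187 over 9 pairs from different slides, and slide was an alternative.

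The members, gene lists and tests were chosen with earlier results of these data known, and *Elavl3*, *Neurog2* and *Neurod4* belong to a signature that the study drew from the same arrays. Named are every member probe and, of each list, the genes with an adjusted p under 0.05, otherwise up to 4 with the smallest p and up to 4 with the highest signal, *Shh*, and the 5 genes most like the members. A gene of a list is given by its brightest tested probe, and array names were matched through older symbols to RefSeq. Precision is limited by the number of arrays. Probes were not placed in exons or untranslated regions. Values of some single genes of the lists are not reported here.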

Additional observations from a re-analysis of the deposited data

Results flagged for a closer look

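Among the 4 mutant pools, the lowest or highest value of 14 member probes was set against the range of the group, and 2 stood past the critical value of Dixon's test, which chance passes in about 1 of 20 groups. *Tubb3* in mutant pool 4, at 10.53, lay above the other mutants at 9.56 to 9.64, with a gap of 0.917 of the range. *Dcx* in mutant pool 3, at 9.33, lay below the others at 9.47 to 9.5, with a gap of 0.83 of the range. *Neurog2* in mutant pool 1 had a gap of 0.714 and *Neurod4* there 0.639, both under the critical value.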

How the results depend on the processing

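Of the 10 member probes tested, those of *Neurod1*, *Elavl3* and *Elavl4* kept their direction and missed an adjusted p under 0.05 under each of 22 alternatives. *Neurog2* stayed lower under all 22, from −2.43 to −0.62, and was called under 4 of them. These were bright patches left out (−2.43), the same with dim values at the array floor (−2.01), mutant pool 1 left out (−2.40) and, with 1 residual degree of freedom, the replicate block without slide 1 (−1.92, limma adjusted p = 1.65e-06), and each gave 1 member probe called. The patch and floor settings, this last fit and the authors' values set to 1 median were added after seeing the data. With 1 pool left out at a time, 0 to 1 member probes were called. *Tubb3* turned to 0.042 with the replicate block and to 0.12 with the replicate block without slide 1. With 1 pool left out it ran from −0.27 (without mutant pool 4) to 0.053 (without mutant pool 1), and it was above 0 under 5 of these 7. With the authors' values, whose arrays have unequal medians, *Stmn2* was −0.092 and the 2 *Dcx* probes −0.31 and −0.23. With these values set to 1 median per array *Neurog1* was 0.24.

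Member probes at an unadjusted p under 0.05 numbered 1 with all arrays, beside 7.96% of all probes, 5 with array weights (14% of all), 2 with bright patches left out (8.05%) and with dim values also at the floor (7.7%), 2 with the replicate block without slide 1 (11.8%), and 0 with the interquartile range filter (10.6%), the authors' values (0.121%) and these at 1 median (4.49%). With 1 pool left out they ran from 0 (without wild-type pool 3, 6.41%) to 5 (without mutant pool 4, 9.22%). The median over the member genes moved from −0.31 to −0.71 with the authors' values, to −0.10 with these at 1 median per array and to −0.023 with the replicate block without slide 1. With the authors' values the list medians moved to −0.71 (proneural and Notch), −0.64 (neuron structure), −0.61 (neural tube), −0.83 (placode and crest), −0.56 (endocrine) and −0.58 (pSHF). With these values set to 1 median per array they were −0.11, −0.034, 0.0015, −0.22, 0.048 and 0.027 in the same order, so the shift to lower values went with the unequal medians of the arrays.

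Probes called among all genes numbered 129 with all arrays, 56 with 75th percentile scaling, 0 with either form of the authors' values, 33 without the filter on dim probes, 11 with the replicate block, 547 with array weights and 637 with the replicate block without slide 1. Leaving out 1 pool gave 12 (without mutant pool 3) to 136 (without mutant pool 1), with 14 without wild-type pool 1, 30 and 35 without wild-type pools 3 and 4, and 37 and 73 without mutant pools 2 and 4. *Shh* passed with array weights (−1.23, limma adjusted p = 0.00906), the interquartile range filter (−1.08), outlier spots kept (−1.06), slide as a random block (−1.08), the replicate block without slide 1 (−1.09) and without wild-type pool 4 (−1.33), and with 1 pool left out its fold change ran from −1.33 to −0.95. The replicate block changed no call of a member. Dim probes limit what can be said of *Neurog1*, *Neurod1* and *Neurod4*.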

Other observations

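Probes that stood more than 2-fold above all 6 other arrays were found in every pool, with 166 in mutant pool 1, 319 in mutant pool 2, 43 in mutant pool 3 and 135 in mutant pool 4, and 214, 76 and 58 in wild-type pools 1, 3 and 4. *Neurog2* and *Neurod4* were 2 of the 166 in mutant pool 1.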
